A study of Homo sapiens with 48 samples.

Results

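The ATF4 amino acid response genes described here are 40 genes chosen by name: ATF4 itself, its partner transcription factors, and genes for the synthesis, uptake and tRNA charging of amino acids that ATF4 is known to induce. Their rows were read by symbol from a deposited table of 19102 genes, and all 40 symbols were found. They fell into 5 role groups: 7 transcription factors, 7 induced regulators and secreted factors, 12 enzymes of amino acid synthesis and one-carbon metabolism, 5 amino acid transporters, and 9 genes of tRNA charging and export.

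ATF4 is a transcription factor of the integrated stress response. When a kinase such as GCN2, which senses uncharged tRNA, or PERK, which senses misfolded protein in the endoplasmic reticulum, phosphorylates the translation factor eIF2 alpha, most protein synthesis slows while the ATF4 mRNA is translated more. ATF4 then pairs with C/EBP proteins on elements that join an ATF-like and a C/EBP-like part, and it induces enzymes, transporters and synthetases that restore the supply of amino acids.

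All libraries were polyadenylated RNA from A382, a human line established from glioblastoma, and the study examined subunits of the EP400/TIP60 complex, which acetylates histones and exchanges the histone variant H2A.Z. The 44 guide RNA libraries were collected 9 days after lentiviral infection with a guide. They covered 16 knockouts (TRRAP, EP400, BRD8, TIP60, the ATPases RUVBL1 and RUVBL2, H2AZ, MRGBP, MORF4L1, MORF4L2, ING3, MEAF6, DMAP1, VPS72, GAS41 and ACTL6A) and 4 controls named sgNeg1 to sgNeg4, with 2 libraries each. The other 4 libraries came from cells given doxycycline for 2 days, 2 carrying a control vector (A382_PCW) and 2 carrying a doxycycline-inducible p53 (A382_P53), so both of those groups received the drug. BRD8 and H2AZ had 2 guides with 2 replicates each and every other knockout had 2 guides with 1 library each. The labels do not say whether infected cells were pools or clones. The sgNeg4 labels lack the R of the other control labels, so whether that pair shares a guide is not stated. Its libraries are called replicates here.

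Values were FPKM (fragments per kilobase of transcript scaled to library size), and empty columns split the table into 5 sections. The controls of a knockout were the sgNeg libraries of that section, so knockouts of a section share their controls: sgNeg1 served BRD8, sgNeg3 served MORF4L1, MORF4L2, RUVBL1 and RUVBL2, sgNeg4 served H2AZ, and sgNeg2 served the other 10. The guide 2 columns of MEAF6 and VPS72 were identical in all 19102 genes and were left out of both, which left MEAF6 and VPS72 with 1 library and 46 libraries in the fits. The smallest steps in the table put the depth at 4.4 to 21.9 fragments per kilobase for each FPKM, depending on the library. The mRNA of the targeted gene was below both sgNeg libraries in 14 of 16 knockouts, with a ratio of means from 0.186 to 1.03. The exceptions were TRRAP and MORF4L1. For H2AZ the gene counted was H2AFZ, at 0.186. H2AFV, a second H2A.Z gene, was not counted and had a ratio of 0.89, with libraries that overlapped the controls. Of the glioma markers, VIM, CD44, EGFR and PDGFRA were detected in every library (lowest values 926, 118, 3.15 and 5.04 FPKM), SOX2 ran from 0.0644 to 79.0 and NES from 0 to 8.75, while GFAP and OLIG2 reached at most 0.347 and 0.0325. Of 11 markers of other cell types, 8 stayed below 1 FPKM in every library, and the highest of the others, CD68, reached 74.0.

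Promoters of the members were searched for a short form of the composite element that ATF4 and C/EBP proteins are known to bind. It was written as TGATGNAA, where N is any base (TTNCATCA on the other strand), in RefSeq promoter windows of build GRCh38.p14 that run from 250 bases before to 50 bases after a start site. Of the 40 members, 30 had a window, 4 of them under a newer symbol. The element was present in 11 of these 30 members (36.7%), against 1217 of all 27305 genes in the table (4.46%). Counted by window, 11 of 50 member windows held it (22.0%), against 3.62% of all 35116 windows. By role, it was present in 4 of 5 transporters, 3 of 7 transcription factors, 2 of 5 tRNA genes, 1 of 8 enzymes and 1 of 5 induced regulators that had a window. A match describes these letters in this window and shows neither binding nor its absence.

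The sequences shown are those of 7 of the 8 members with a match that were called in the most comparisons. Each is written 5′ to 3′ on the strand of the gene with the match in capitals. The matched letters come as TGATGAAA in ASNS, as TGATGGAA in ATF3, as TGATGTAA in SLC3A2 and as TGATGCAA in the other members shown, read on either strand. ASNS encodes asparagine synthetase, and its promoter is the textbook example of an amino acid response element. Its window lies on the minus strand at chr7:97872409-97872658.
ASNS: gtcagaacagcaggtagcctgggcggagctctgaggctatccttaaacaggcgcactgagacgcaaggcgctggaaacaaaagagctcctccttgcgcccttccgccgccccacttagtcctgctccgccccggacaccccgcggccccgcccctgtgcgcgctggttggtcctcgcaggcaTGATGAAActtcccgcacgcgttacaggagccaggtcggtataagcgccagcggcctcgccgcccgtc
CHAC1, an enzyme that breaks down glutathione, has it on the other strand, in the plus-strand window chr15:40953221-40953470.
CHAC1: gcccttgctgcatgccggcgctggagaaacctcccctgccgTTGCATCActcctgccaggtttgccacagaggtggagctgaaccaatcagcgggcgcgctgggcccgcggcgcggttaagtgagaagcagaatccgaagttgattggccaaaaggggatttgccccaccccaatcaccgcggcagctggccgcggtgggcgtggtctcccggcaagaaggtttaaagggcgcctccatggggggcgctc
SLC1A5, a glutamine transporter, has it on the gene's strand, in the minus-strand window chr19:46784815-46785064.
SLC1A5: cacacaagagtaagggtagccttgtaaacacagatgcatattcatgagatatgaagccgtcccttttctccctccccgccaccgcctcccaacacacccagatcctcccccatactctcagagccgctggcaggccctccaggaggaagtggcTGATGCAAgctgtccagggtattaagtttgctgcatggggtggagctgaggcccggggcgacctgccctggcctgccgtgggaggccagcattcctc
JDP2, a small bZIP repressor, has it close to the start site, in the plus-strand window chr14:75427772-75428021.
JDP2: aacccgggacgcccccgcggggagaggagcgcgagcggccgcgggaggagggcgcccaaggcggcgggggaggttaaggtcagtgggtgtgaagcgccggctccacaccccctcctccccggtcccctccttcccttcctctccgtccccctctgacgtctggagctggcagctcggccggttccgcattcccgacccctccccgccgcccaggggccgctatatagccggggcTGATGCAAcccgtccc
ATF3, a stress-induced bZIP factor, has it in the plus-strand window chr1:212565157-212565406.
ATF3: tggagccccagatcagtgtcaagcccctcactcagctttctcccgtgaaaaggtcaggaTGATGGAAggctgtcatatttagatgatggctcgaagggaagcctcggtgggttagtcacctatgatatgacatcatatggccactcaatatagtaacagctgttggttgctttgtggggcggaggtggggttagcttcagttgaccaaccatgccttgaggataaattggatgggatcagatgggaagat
For SLC1A4, a neutral amino acid transporter (chr2:64989381-64989410, plus strand), and SLC3A2, the heavy chain that carries SLC7A5 to the membrane (chr11:62881719-62881748, plus strand), the match lies at or after the start site, so 30 bases are shown.
SLC1A4: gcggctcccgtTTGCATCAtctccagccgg
SLC3A2: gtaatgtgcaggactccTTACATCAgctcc
STC2 and PCK2 were the members with a window but no match that were called most often, and are shown for contrast (chr5:173328415-173328664, minus strand, and chr14:24094061-24094310, plus strand).
STC2: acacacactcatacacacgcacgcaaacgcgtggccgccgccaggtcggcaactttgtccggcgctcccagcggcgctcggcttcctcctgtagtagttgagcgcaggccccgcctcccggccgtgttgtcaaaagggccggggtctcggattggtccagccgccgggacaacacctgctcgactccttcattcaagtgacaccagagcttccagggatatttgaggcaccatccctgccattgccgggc
PCK2: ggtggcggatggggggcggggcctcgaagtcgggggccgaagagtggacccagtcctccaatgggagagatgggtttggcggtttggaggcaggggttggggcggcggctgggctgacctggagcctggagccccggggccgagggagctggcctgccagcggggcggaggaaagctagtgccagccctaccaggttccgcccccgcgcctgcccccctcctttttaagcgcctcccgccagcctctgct

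Most members rose after H2AZ knockout (36 of 39, against 2.60% of all tested genes) and BRD8 knockout (27 of 36, against 24.2%). After TRRAP knockout 18 fell and 0 rose, where 7.71% of all genes fell and 6.54% rose. Most of these calls, and most calls over all genes, were lost without TRRAP guide 2. After TIP60 knockout 16 fell and 3 rose, against 26.6% and 15.4%, and after p53 induction 31 fell and 8 rose, against 46.7% and 37.6%. After RUVBL1 knockout 6 of 7 transcription factors rose and 2 of 10 enzymes fell, where 12.3% of all genes rose and 15.5% fell. After RUVBL2 knockout 4 of 7 factors rose and 6 of 10 enzymes fell, where 13.5% rose and 19.9% fell. A member was called when its adjusted p was under 0.05 (limma on log2(FPKM + 1), Benjamini-Hochberg over all tested genes of the section). Differences below are in log2(FPKM + 1) of knockout minus control, ± the standard error. In bulk RNA, a change in the share of cells and a change in RNA per cell cannot be told apart. Of 646 tested pairs of a member and a comparison, 183 were called, 97 higher and 86 lower. In all 183 every library of one group lay beyond every library of the other. These pairs were picked by the call and groups were small, so this adds no support to the calls. It was not counted over all genes. Of the 183, 5 entered the fit only through the libraries of the higher group and so had to differ: CEBPB and JDP2 after BRD8 knockout, CTH after H2AZ knockout, and CTH and INHBE after p53 induction. Without these the counts were 25 higher for BRD8, 35 higher for H2AZ and 29 lower for p53. Calls fell in 9 of the 17 comparisons. Of the 39 members called at least once, 32 were called higher in one comparison and lower in another. Neither these 32 nor the 183 pairs were set beside a count over all genes, so they show nothing particular to the members. The p53 comparison alone called 84.3% of all tested genes.

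After H2AZ knockout 36 of 39 tested members were called, all 36 higher, where 6.02% of all 11087 tested genes were called, 2.60% higher and 3.42% lower. The median member difference was 0.85, against -0.01 over all tested genes. The members with no call were ATF3, PYCR1 and ALDH18A1. Leaving out 1 library shifted the calls over all genes as well as the member counts that follow. When each of the 6 libraries was left out in turn, 30 to 35 members were called, and 28 of the 36 calls held in every fit.

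After BRD8 knockout 29 of 36 tested members were called, 27 higher and 2 lower. Here 45.9% of all 8458 tested genes were called, 24.2% higher and 21.7% lower, so a call as such was common and the direction was less so. The median was 0.50 for members and 0.02 for all tested genes. CEBPG, INHBE, CTH and ALDH1L2 were below the filter of 1 FPKM in at least 2 libraries. Fewer of all genes were called in each fit that left out 1 library. Leaving out 1 library gave 20 (without sgNeg1 replicate 1) to 30 calls, and 19 of the 29 held in every fit.

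After TRRAP knockout 18 of 38 tested members were called, all 18 lower, against 14.2% called, 7.71% called lower and 6.54% called higher among 11382 tested genes. The median was -0.68 for members and -0.02 for all. This count rested on single libraries, and calls over all genes also fell without TRRAP guide 2 or either sgNeg2 library. TRRAP mRNA was below both sgNeg2 libraries in guide 1 but lay between them in guide 2. Most calls thus needed the library whose target mRNA was not below both controls. Whether the falls depend on the level of TRRAP was not tested. Without TRRAP guide 2 the member median was -0.46, against 0.01 for all genes. It was -0.58 without sgNeg2 replicate 1, -0.80 without sgNeg2 replicate 2 and -0.89 without TRRAP guide 1, against -0.01, -0.025 and -0.05. Of the 18 calls, those of NUPR1 and INHBE alone held in every fit. Without the filter on low values 11 members were called, against 7.55% of all genes.

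After TIP60 knockout 19 of 38 members were called, 3 higher and 16 lower, against 42.0% called, 15.4% higher and 26.6% lower, over all genes, so the share of members called was near that of all genes. The medians were -0.43 and -0.10. In the same section EP400 knockout gave 3 calls, all lower, against 3.83% over all genes, 2.27% lower and 1.56% higher, with medians of -0.36 and -0.03. The EP400 calls were NUPR1, INHBE and VLDLR, and none of the 3 held in every leave-one-out fit, whereas 14 of the 19 TIP60 calls did. A fit over the EP400 and sgNeg2 libraries alone called 17 members for EP400, against 15.3% of all genes.

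The remaining knockouts against sgNeg2 gave 1 call between them: STC2 rose after GAS41 knockout, where 0.940% of all genes were called, 0.580% higher and 0.360% lower. ACTL6A, MRGBP, ING3, DMAP1, MEAF6 and VPS72 each gave 0 of 38 by limma, with 0.782%, 0.264%, 0.0264%, 0%, 0% and 0% of all genes called. The shares called higher and lower were 0.220% and 0.562% for ACTL6A, 0.176% and 0.0879% for MRGBP, and 0.0264% and 0% for ING3. At an unadjusted p under 0.05 the counts of members were 20 for ACTL6A (52.6%, against 15.6% of all genes), 13 for DMAP1 (34.2%, against 8.97%) and 11 for GAS41 (28.9%, against 16.9%). They were 5 for MRGBP (13.2%, against 12.8%), 3 for ING3 (7.89%, against 9.53%), 1 for MEAF6 (2.63%, against 3.65%) and 0 for VPS72 (3.53% of all genes). Member medians were 0.45 for ACTL6A, 0.33 for DMAP1, 0.30 for VPS72 and 0.26 for GAS41, and 0.02, -0.03 and -0.07 for MRGBP, ING3 and MEAF6. Fits over the libraries of 1 comparison called 6 members for ACTL6A, 10 for GAS41 and 2 for ING3, against 2.82%, 9.77% and 1.69% of all genes, and without ACTL6A guide 1 the ACTL6A count was 5, against 3.34%.

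After RUVBL1 knockout 19 of 38 members were called, 14 higher and 5 lower, against 27.8% over all 11063 tested genes, 12.3% higher and 15.5% lower. After RUVBL2 knockout 19 of 38 were called as well, 8 higher and 11 lower, against 33.4%, 13.5% higher and 19.9% lower. Member medians were 0.20 and 0.04. A fit over the RUVBL1 and sgNeg3 libraries alone called 25 members, against 56.1% of all genes. Leaving out 1 library lowered the calls over all genes as well as the member counts that follow. The RUVBL1 count was 10 without sgNeg3 replicate 1, 10 without sgNeg3 replicate 2 and 11 without RUVBL1 guide 2. The RUVBL2 count was 12 without sgNeg3 replicate 1 and 12 without RUVBL2 guide 1, and a fit over the RUVBL2 and sgNeg3 libraries alone called 31 members, against 62.4% of all genes. MORF4L1 and MORF4L2, tested in the same fit, gave 0 of 38 each at 0% of all genes, and 0 and 0 at an unadjusted p under 0.05, against 0.768% and 2.08% of all genes. Without MORF4L2 guide 1 the MORF4L2 count was 2, against 11.9% of all genes.

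After p53 induction all 39 tested members were called, 8 higher and 31 lower, but so were 84.3% of all 12203 tested genes, 37.6% higher and 46.7% lower. The member median was -0.84 and that of all genes -0.13. Rescaling the libraries to a common median moved these medians to -0.61 and 0.07 and left 8 higher and 28 lower members, so falls near the median of all genes depend on the scaling.

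**Figure D1:**
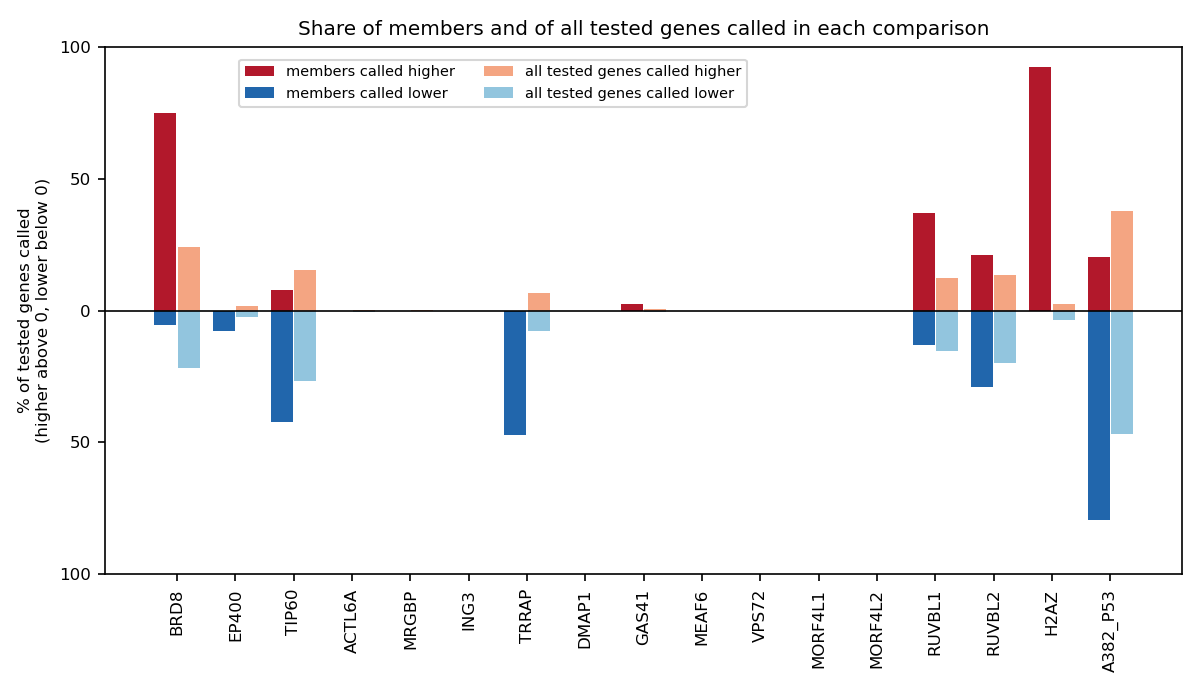
Share of tested members (dark) and of all tested genes (light) called in each of the 17 comparisons, in percent, with genes called higher above 0 and genes called lower below 0. The tallest member bar is H2AZ, where 36 of 39 members were called higher against 2.60% of all genes, and TRRAP is the comparison with 18 members called lower and 0 higher.

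**Figure D2:**
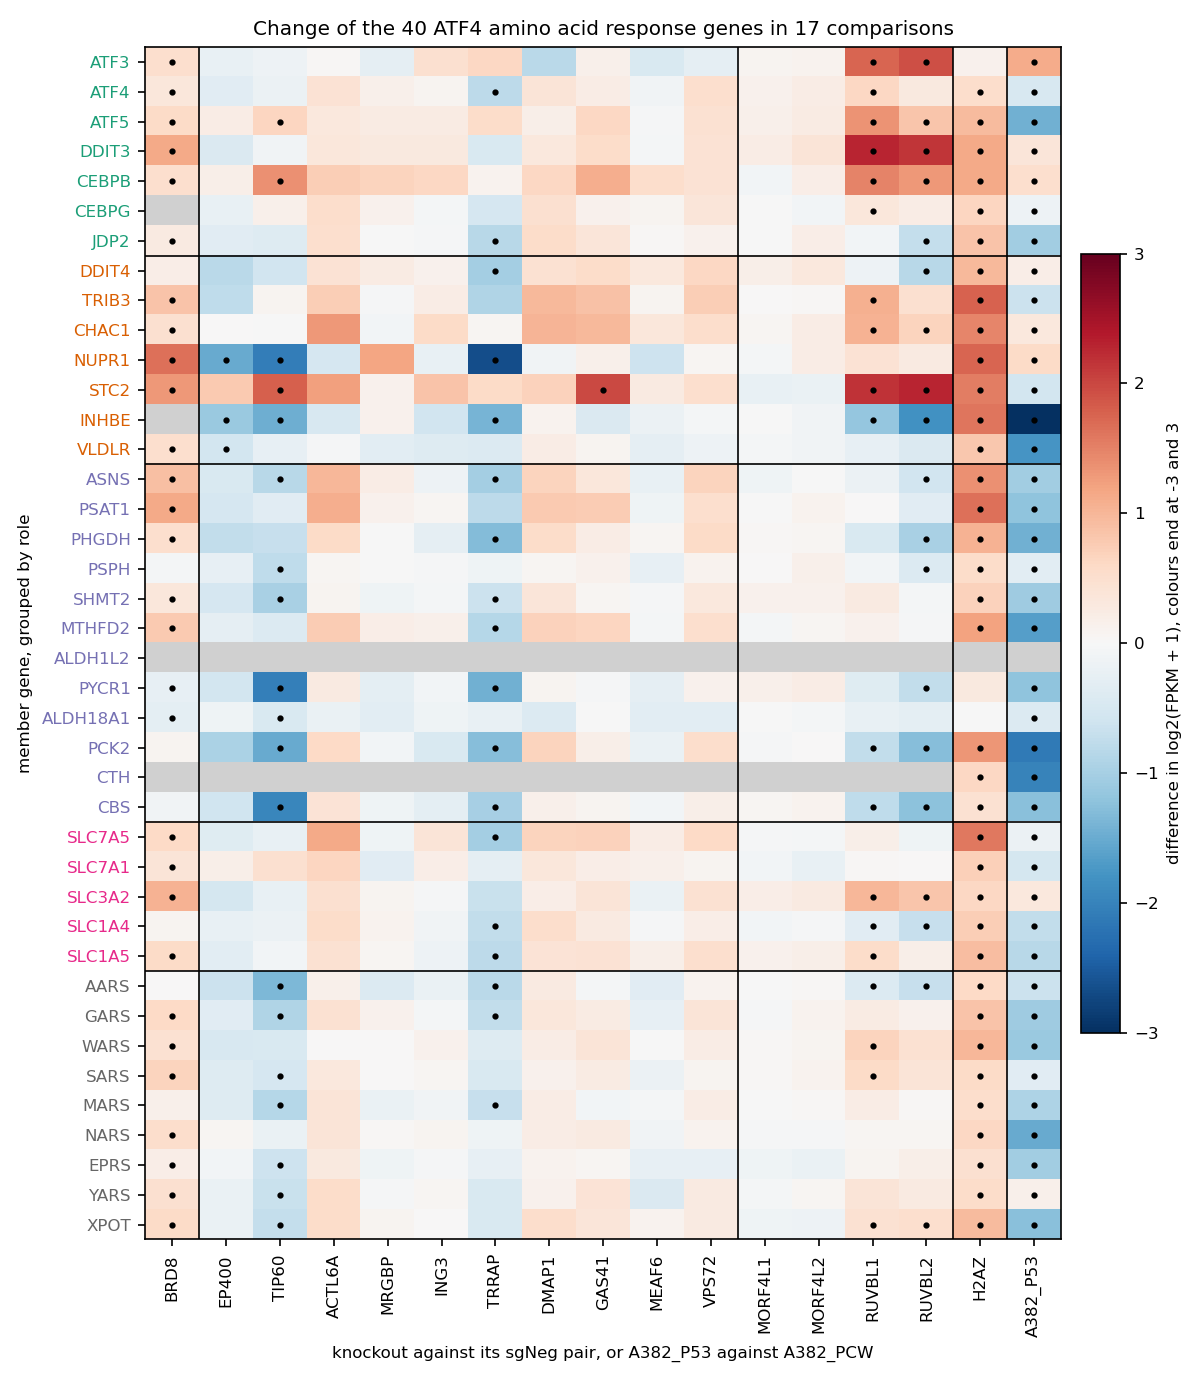
Difference in log2(FPKM + 1) of each of the 40 members (rows, grouped and coloured by role) in each of the 17 comparisons (columns, black lines part the 5 sections). Red is higher than control, blue is lower, grey was not tested and a black dot marks a called difference. The H2AZ column has 36 dots, all on red, and ALDH1L2 was tested in none.

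The transcription factors come first. Their medians were highest after RUVBL1 knockout (1.34, 6 of 7 called higher), H2AZ knockout (0.85, 6 of 7 higher) and RUVBL2 knockout (0.83, 4 higher and 1 lower), and their median after TRRAP knockout was -0.45, with 2 lower. Over all tested genes, 12.3%, 2.60% and 13.5% were called higher after RUVBL1, H2AZ and RUVBL2 knockout. The shares called lower were 19.9% after RUVBL2 and 7.71% after TRRAP knockout. After BRD8 knockout ATF4, ATF5, DDIT3 and ATF3 rose. CEBPB and JDP2 were called higher as well but reached 1 FPKM in BRD8 libraries alone, and CEBPG was below the filter.

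ATF4 mRNA itself was called in 5 comparisons, higher in 3 and lower in 2. After H2AZ knockout it stood at 649.6, 674, 693 and 771 FPKM, against 435 and 528 in sgNeg4, a difference of 0.54 ± 0.13 (adjusted p = 0.0429, lost without sgNeg4 replicate 2, H2AZ guide 1 replicate 1, H2AZ guide 1 replicate 2, H2AZ guide 2 replicate 1 or H2AZ guide 2 replicate 2). After BRD8 knockout it stood at 25.6, 26.8, 26.9 and 30.03, against 19.98 and 22.7 in sgNeg1, a difference of 0.34 ± 0.08 (adjusted p = 0.00476, lost without sgNeg1 replicate 1). In both knockouts all 4 libraries were above both controls. After TRRAP knockout ATF4 stood at 141 and 219.9, against 279 and 328 in sgNeg2, a difference of -0.78 ± 0.23 (adjusted p = 0.0373, lost without sgNeg2 replicate 1, sgNeg2 replicate 2 or TRRAP guide 2). After RUVBL1 knockout it stood at 531 and 557, against 334 and 369 in sgNeg3, a difference of 0.63 ± 0.20 (adjusted p = 0.0455, lost without any 1 of the 4 libraries). After p53 induction it stood at 245 and 258, against 345 and 357 in A382_PCW, a difference of -0.48 ± 0.04 (adjusted p = 3.73e-05). The guide 2 library of TRRAP was the lower of its pair. The difference ran from -0.35 (EP400) to 0.50 (VPS72) in the 12 knockouts without a call.

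ATF5, a related factor that is itself translated under stress, rose in 5 knockouts and fell after p53 induction. It stood at 59.5, 64.02, 69.5 and 71.2 FPKM after H2AZ knockout, against 30.8 and 36.4, a difference of 0.95 ± 0.11 (adjusted p = 0.00156). After RUVBL1 knockout the values were 44.2 and 51.3 and after RUVBL2 knockout 32.2 and 34.3, against 17.9 and 18.5 in sgNeg3. Those differences were 1.34 ± 0.23 (adjusted p = 0.00381) and 0.83 ± 0.23 (adjusted p = 0.0218, lost without any 1 of the 4 libraries). All 4 RUVBL libraries were above both controls. After TIP60 knockout ATF5 stood at 29.03 and 47.2, against 20.1 and 27.6, a difference of 0.63 ± 0.21 (adjusted p = 0.0274, lost without sgNeg2 replicate 2 or TIP60 guide 1). The BRD8 libraries stood at 6.21, 6.52, 6.94 and 7.12, against 3.39 and 5.03, a difference of 0.58 ± 0.11 (adjusted p = 0.00231). With induced p53 the order was the other way, at 19.3 and 20.8 against 54.9 and 57.5, a difference of -1.44 ± 0.06 (adjusted p = 4.13e-07).

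CEBPB, a C/EBP partner of ATF4, was called in 6 comparisons and was higher in each, although in the first section it entered the fit only through BRD8 libraries. It stood at 39.4 and 42.4 FPKM after RUVBL1 and 35.4 and 36.1 after RUVBL2 knockout, against 13.8 and 13.9 in sgNeg3, with differences of 1.5 ± 0.19 (adjusted p = 0.00137) and 1.31 ± 0.19 (adjusted p = 0.00142). After TIP60 knockout it stood at 23.1 and 38.7, against 10.9 and 11.1, a difference of 1.37 ± 0.29 (adjusted p = 0.00155). The TIP60 guides differed, yet both were above both sgNeg2 libraries. The H2AZ libraries stood at 31.8, 33.6, 35.6 and 38.8, against 14.01 and 16.7, a difference of 1.14 ± 0.11 (adjusted p = 5.05e-04). With induced p53 it stood at 55.4 and 62.6, against 39.3 and 43.4, a difference of 0.50 ± 0.07 (adjusted p = 4.52e-04). In the first section CEBPB stood at 0.912, 1.33, 1.46 and 1.53 after BRD8 knockout against 0.481 and 0.779, a difference of 0.50 ± 0.12 (adjusted p = 0.00744, lost without sgNeg1 replicate 1). The difference ran from -0.09 (MORF4L1) to 1.08 (GAS41) in the 11 knockouts without a call.

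The stress factors DDIT3 (CHOP) and ATF3 showed their largest rises after RUVBL1 and RUVBL2 knockout. DDIT3 averaged 234 and 209.9 FPKM there, against 46.8 in sgNeg3, with differences of 2.29 ± 0.30 (adjusted p = 0.00136) and 2.14 ± 0.30 (adjusted p = 0.00103). ATF3 averaged 23.1 and 26.6, against 6.198, with differences of 1.74 ± 0.16 (adjusted p = 4.00e-04) and 1.94 ± 0.16 (adjusted p = 1.25e-04). DDIT3 also rose after BRD8 knockout by 1.13 ± 0.15 (adjusted p = 3.04e-04) and after H2AZ knockout by 1.12 ± 0.16 (adjusted p = 0.00367). ATF3 was among the few members without a call after H2AZ knockout, at 0.12 ± 0.11 (adjusted p = 0.594). After p53 induction ATF3 rose by 1.11 and DDIT3 by 0.35. ATF3 rose after BRD8 knockout by 0.52 (lost without sgNeg1 replicate 1).

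JDP2 and CEBPG were the remaining factors. JDP2, a repressor that binds C/EBP and AP-1 type elements, rose after H2AZ knockout by 0.85. It stood at 1.13, 1.22, 1.27 and 1.37 FPKM after BRD8 knockout and 0.813 and 0.933 in sgNeg1, a difference of 0.26 (lost without sgNeg1 replicate 1). JDP2 differences were -0.83 (lost without sgNeg2 replicate 1 or TRRAP guide 2) after TRRAP knockout, -0.71 (lost without sgNeg3 replicate 1 or RUVBL2 guide 1) after RUVBL2 knockout and -1.03 after p53 induction. CEBPG, another C/EBP partner, rose after H2AZ knockout by 0.65 and after RUVBL1 knockout by 0.35 (lost without any 1 of the 4 libraries). Its difference after p53 induction, -0.15 (lost without A382_PCW replicate 1, A382_PCW replicate 2 or A382_P53 replicate 2), turned to 0.07 when libraries were rescaled to a common median.

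**Figure D3:**
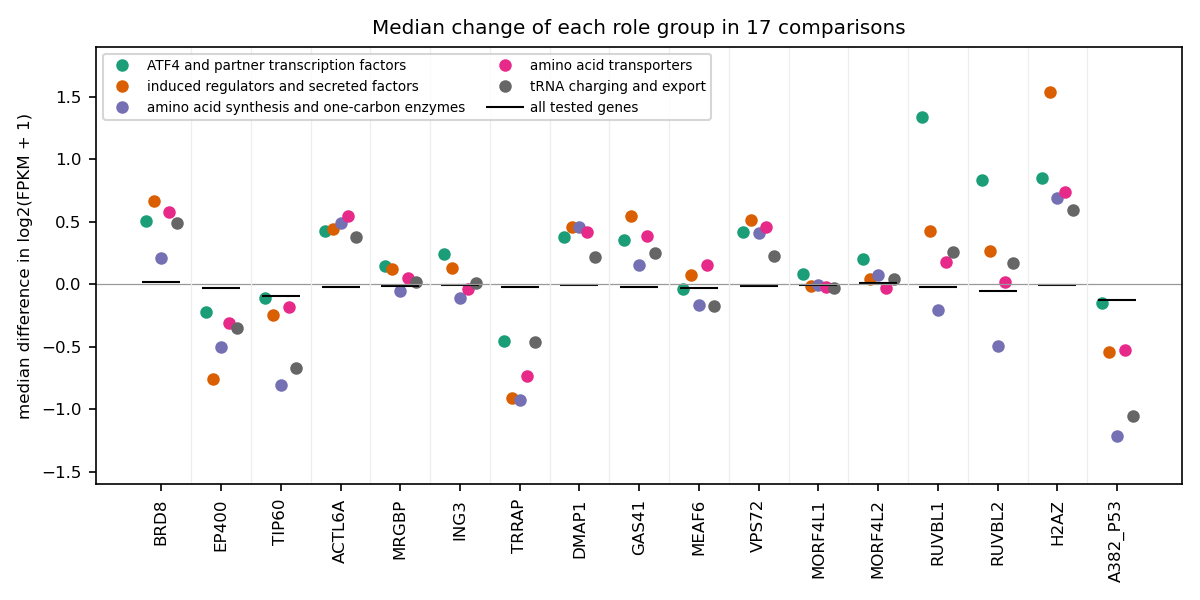
Median difference in log2(FPKM + 1) of the tested members of each of the 5 role groups (coloured points) and of all tested genes (black bars) in the 17 comparisons. After RUVBL1 and RUVBL2 knockout the transcription factors sit at 1.34 and 0.83 while the enzymes sit at -0.20 and -0.49, and after H2AZ knockout all 5 groups lie between 0.60 and 1.54.

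All 7 induced regulators and secreted factors rose after H2AZ knockout, with a median of 1.54, and 5 of 6 tested rose after BRD8 knockout, with a median of 0.67. After TRRAP knockout 3 of 7 fell, with a median of -0.91, after TIP60 knockout 2 fell and 1 rose, and after EP400 knockout 3 fell. Over all tested genes, 2.60% rose after H2AZ, 24.2% after BRD8 and 15.4% after TIP60 knockout. The shares that fell were 7.71% after TRRAP, 26.6% after TIP60 and 2.27% after EP400 knockout.

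NUPR1, a small chromatin-associated stress protein, had the largest falls of any member after TRRAP, TIP60 and EP400 knockout. It stood at 1.02 and 1.601 FPKM after TRRAP knockout, 1.49 and 3.68 after TIP60 knockout and 3.72 and 4.36 after EP400 knockout, against 12.1 and 14.8 in sgNeg2. The differences were -2.65 ± 0.25 (adjusted p = 5.94e-05), -2.07 ± 0.25 (adjusted p = 1.56e-05) and -1.51 ± 0.25 (adjusted p = 0.00677, lost without sgNeg2 replicate 1, EP400 guide 1 or EP400 guide 2). All 6 knockout libraries were below both controls. In the other direction, it stood at 12.6, 16.5, 16.9 and 17.8 after BRD8 knockout, against 4.06 and 4.698 in sgNeg1, a difference of 1.65 ± 0.12 (adjusted p = 1.05e-05). After H2AZ knockout it stood at 33.2, 36.1, 40.7 and 43.1, against 10.4 and 10.96, a difference of 1.74 ± 0.12 (adjusted p = 5.62e-05). Induced p53 left it at 73.96 and 79.8, against 49.95 and 52.6, a difference of 0.57 ± 0.06 (adjusted p = 4.04e-05). The MRGBP libraries, at 29.9 and 33.3, were also above both sgNeg2 libraries, but the difference did not pass the test, at 1.18 ± 0.25 (adjusted p = 0.065).

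STC2, a secreted glycoprotein induced by stress, was called higher in 6 knockouts. It stood at 39.3 and 45.1 FPKM after RUVBL1 and 45.9 and 46.95 after RUVBL2 knockout, against 8.61 and 8.697 in sgNeg3, with differences of 2.16 ± 0.12 (adjusted p = 8.18e-05) and 2.3 ± 0.12 (adjusted p = 4.73e-05). After GAS41 knockout it stood at 32.2 and 41.7 and after TIP60 knockout at 22.6 and 46.4, against 7.87 and 9.402 in sgNeg2. Those differences were 1.97 ± 0.41 (adjusted p = 0.0372, lost without any 1 of the 4 libraries) and 1.8 ± 0.41 (adjusted p = 0.00256). STC2 thus rose in the TIP60 libraries in which NUPR1, INHBE and most enzymes fell. The H2AZ libraries stood at 32.97, 36.9, 38.04 and 39.5, against 11.7 and 12.2, a difference of 1.54 ± 0.10 (adjusted p = 5.27e-05). After BRD8 knockout it stood at 6.37, 7.02, 7.202 and 7.31, against 1.95 and 2.57, a difference of 1.3 ± 0.09 (adjusted p = 7.67e-06). Only after p53 induction was it called lower, at 29.96 and 30.2 against 43.99 and 44.6, a difference of -0.54 ± 0.05 (adjusted p = 2.16e-05). The difference ran from -0.22 (MORF4L1) to 1.22 (ACTL6A) in the 10 knockouts without a call.

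INHBE, which encodes a subunit of activin E, was called in 7 comparisons, lower in 6 of them. It stood at 0.768 and 0.888 FPKM with induced p53, against 26.9 and 28.7 in A382_PCW, a difference of -3.98 ± 0.08 (adjusted p = 2.60e-08). It passed the filter in that section through the A382_PCW libraries alone. It stood at 0.481 and 0.507 after TIP60 knockout, 0.478 and 0.659 after TRRAP knockout and 0.892 and 0.902 after EP400 knockout, against 2.87 and 3.33 in sgNeg2. The differences were -1.46 ± 0.18 (adjusted p = 2.13e-05), -1.39 ± 0.18 (adjusted p = 6.01e-04) and -1.11 ± 0.18 (adjusted p = 0.00662, lost without sgNeg2 replicate 1, EP400 guide 1 or EP400 guide 2). Every one of these libraries was below 1 FPKM, where log2(FPKM + 1) understates the change. It stood at 1.55 and 2.53 after RUVBL1 and 0.793 and 1.03 after RUVBL2 knockout, against 5.695 and 5.801, with differences of -1.17 ± 0.17 (adjusted p = 0.00216) and -1.82 ± 0.17 (adjusted p = 1.91e-04). After H2AZ knockout the order was reversed, at 8.74, 9.45, 9.58 and 9.68 against 2.31 and 2.505 in sgNeg4, a difference of 1.6 ± 0.10 (adjusted p = 5.27e-05). INHBE did not pass the filter in the first section, where it stood at 0.398, 0.604, 0.622 and 0.677 after BRD8 knockout and 0.289 and 0.332 in sgNeg1.

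TRIB3, a pseudokinase that feeds back on ATF4, and CHAC1 rose after H2AZ knockout by 1.78 ± 0.10 (adjusted p = 2.33e-05) and 1.47 ± 0.13 (adjusted p = 2.61e-04). TRIB3 had the largest rise of all members there, from a mean of 33.4 FPKM in sgNeg4 to 117. After RUVBL1 knockout TRIB3 rose by 1.08 and CHAC1 by 1.03. After BRD8 knockout TRIB3 rose by 0.84 and CHAC1 by 0.47 (lost without sgNeg1 replicate 2). CHAC1 also rose after RUVBL2 knockout by 0.66 (lost without any 1 of the 4 libraries). With induced p53 the members of this pair went opposite ways, with TRIB3 at -0.64 and CHAC1 at 0.33.

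DDIT4 (REDD1), an inhibitor of mTORC1, rose after H2AZ knockout by 0.97 and after p53 induction by 0.20. Its difference was -1.03 (lost without sgNeg2 replicate 1, sgNeg2 replicate 2 or TRRAP guide 2) after TRRAP knockout and -0.83 after RUVBL2 knockout. VLDLR, a lipoprotein receptor, rose after H2AZ knockout by 0.81 (lost without sgNeg4 replicate 1) and after BRD8 knockout by 0.50. VLDLR differences were -0.56 (lost without any 1 of the 4 libraries) after EP400 knockout and -1.76 after p53 induction.

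**Figure D4:**
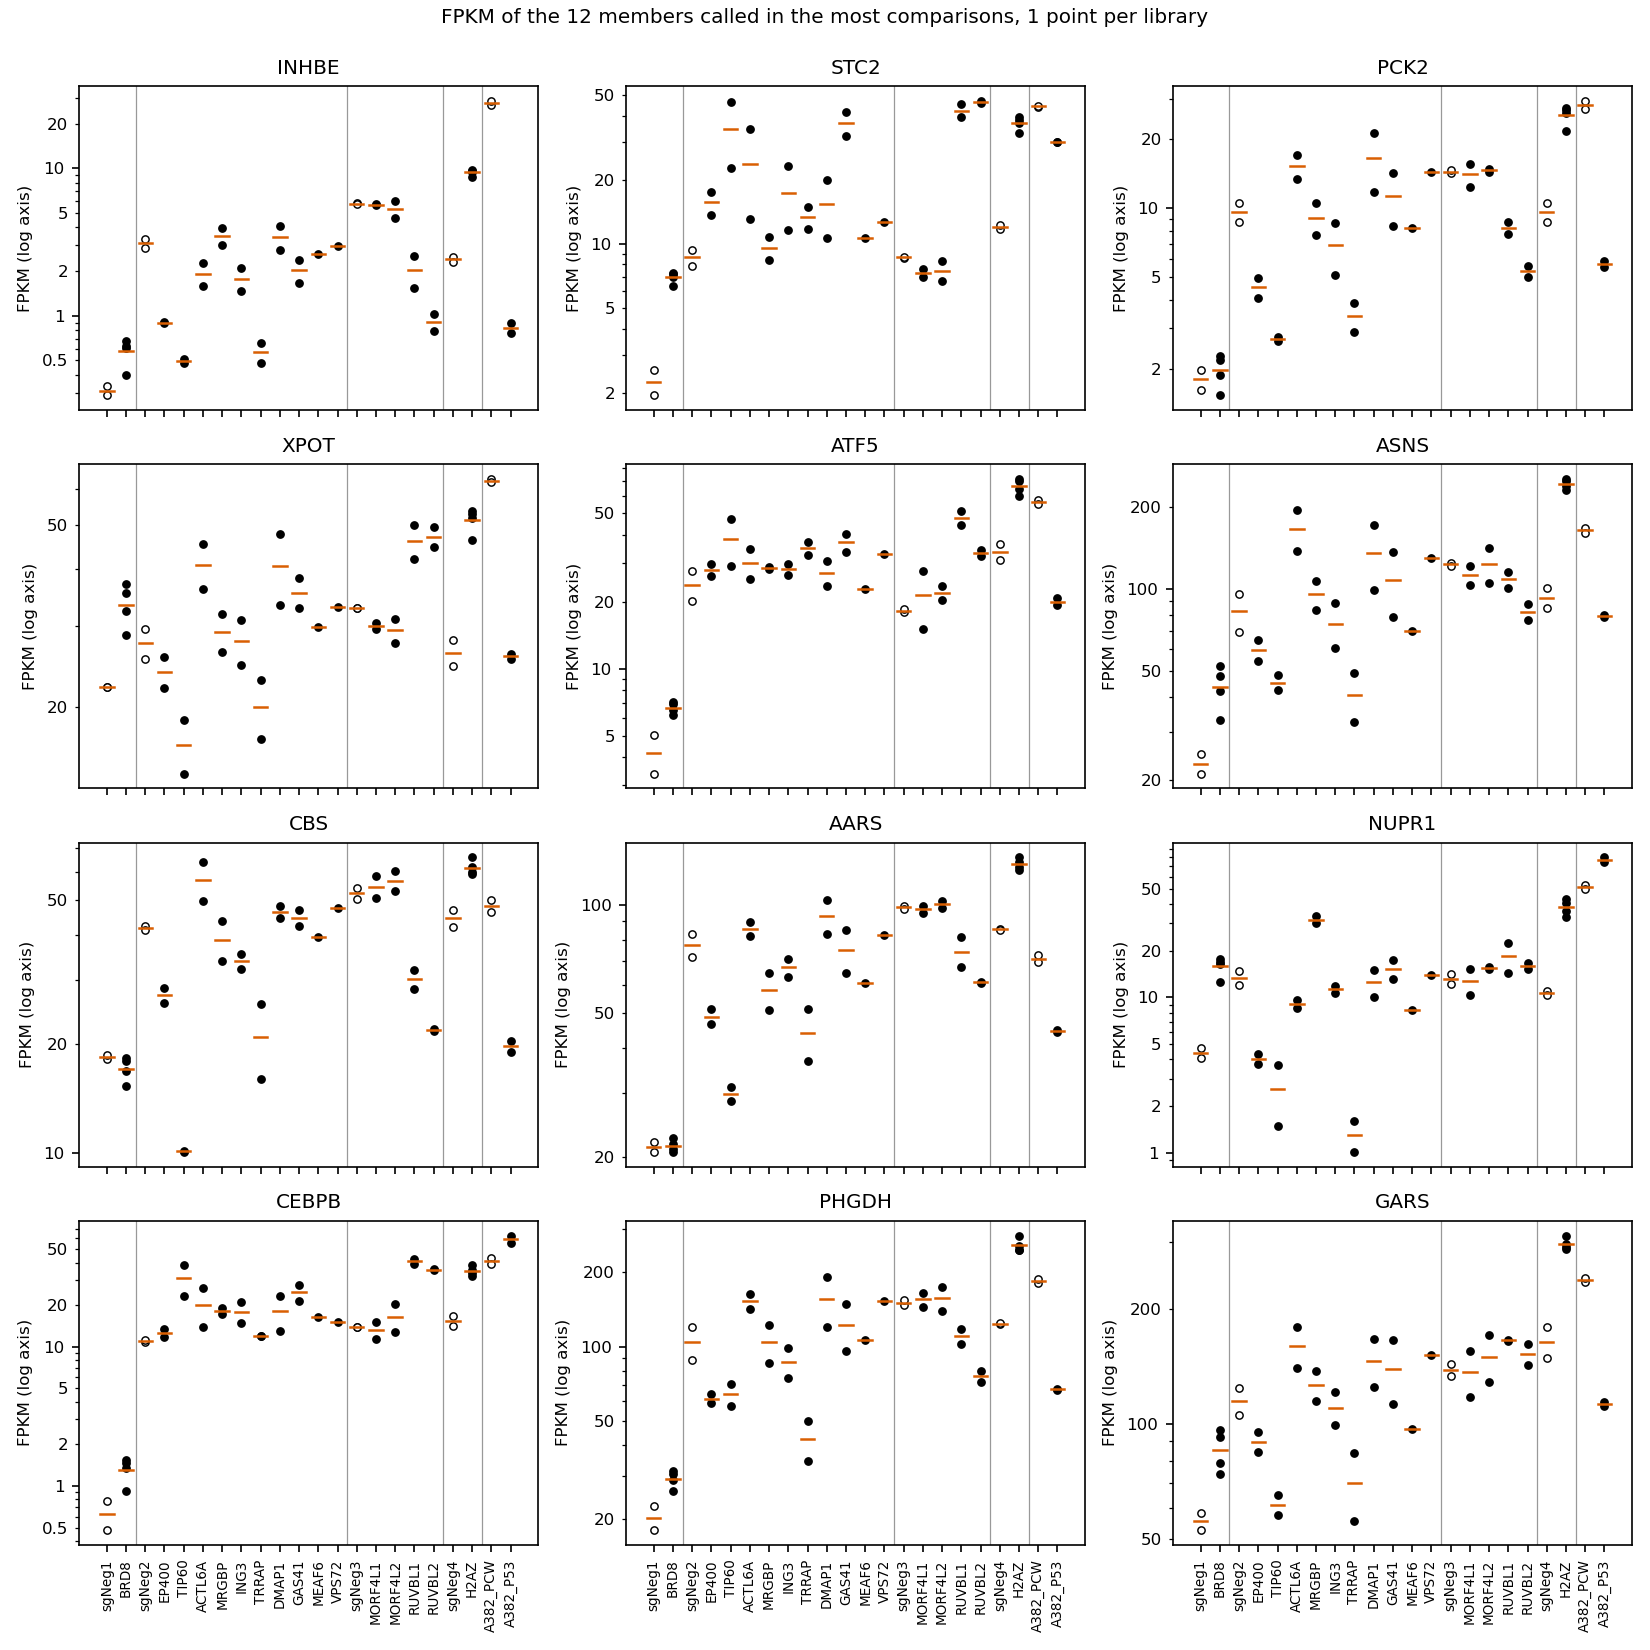
FPKM on a log axis of the 12 members called in the most comparisons, with 1 point per library, open for control groups and filled for knockouts or induced p53. Orange bars are group means and grey lines part the 5 sections, which are taken as normalized apart, so heights are compared only between lines. INHBE falls from 26.9 and 28.7 in A382_PCW to 0.768 and 0.888 with induced p53, and the 4 H2AZ points lie above both sgNeg4 points in all 12 panels. The panels were picked by number of calls, and all 12 members were called higher after H2AZ knockout. The separation there thus adds no support to those calls, and it was not counted over all genes.

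The enzymes of amino acid synthesis and one-carbon metabolism gave the most falls. After p53 induction all 11 tested were called lower, with a median of -1.22. CTH, among them, entered that fit only through the A382_PCW libraries and so had to differ. ALDH1L2 was below the filter but stood higher, at 0.742 and 0.651 FPKM with induced p53, against 0 and 0.0103 in A382_PCW. After TRRAP knockout 7 of 10 fell, with a median of -0.93, after TIP60 knockout 7 of 10, with a median of -0.80, and after RUVBL2 knockout 6 of 10, with a median of -0.49. After H2AZ knockout 9 of 11 were called higher, with a median of 0.69. CTH, again among them, entered that fit only through the H2AZ libraries. After BRD8 knockout 5 of 10 rose and 2 fell, with a median of 0.21. Over all tested genes, 46.7% fell after p53 induction, 7.71% after TRRAP, 26.6% after TIP60 and 19.9% after RUVBL2 knockout. The shares were 2.60% higher after H2AZ knockout, and 24.2% higher and 21.7% lower after BRD8 knockout.

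ASNS, asparagine synthetase, was called in 6 comparisons, higher in 2 and lower in 4. It stood at 229.8, 237, 248 and 252 FPKM after H2AZ knockout, against 84.9 and 101 in sgNeg4, a difference of 1.38 ± 0.10 (adjusted p = 1.23e-04). The BRD8 libraries stood at 33.2, 42.2, 48.02 and 52.01, against 21.1 and 24.8 in sgNeg1, a difference of 0.89 ± 0.15 (adjusted p = 9.95e-04). All 8 knockout libraries were above their controls. After TIP60 knockout it stood at 42.4 and 48.3 and after TRRAP knockout at 32.5 and 49.03, against 69.5 and 95.8 in sgNeg2. Those differences were -0.84 ± 0.31 (adjusted p = 0.0382, lost without sgNeg2 replicate 1, TIP60 guide 1 or TIP60 guide 2) and -1.01 ± 0.31 (adjusted p = 0.0388, lost without sgNeg2 replicate 1, sgNeg2 replicate 2 or TRRAP guide 2). After RUVBL2 knockout it stood at 76.8 and 87.7, against 121 and 125, a difference of -0.57 ± 0.17 (adjusted p = 0.0295, lost without any 1 of the 4 libraries). With induced p53 it stood at 78.5 and 80.4, against 160.4 and 167, a difference of -1.03 ± 0.04 (adjusted p = 5.96e-07). The ACTL6A libraries, at 137 and 194, were above both sgNeg2 libraries, yet the difference of 0.99 ± 0.31 (adjusted p = 0.126) did not pass the test.

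The serine pathway genes PHGDH, PSAT1 and PSPH encode its consecutive enzymes, and they were called in 5, 3 and 4 comparisons. PHGDH stood at 245, 247, 255 and 282 FPKM after H2AZ knockout, against 124 and 124, a difference of 1.04 ± 0.10 (adjusted p = 5.02e-04). After BRD8 knockout it stood at 25.97, 28.7, 30.6 and 31.3, against 18.03 and 22.5, a difference of 0.51 ± 0.10 (adjusted p = 0.00205). PHGDH was lower after TRRAP knockout, at 34.5 and 49.8 against 88.2 and 120.4, a difference of -1.29 ± 0.27 (adjusted p = 0.0075, lost without sgNeg2 replicate 1 or TRRAP guide 2). After RUVBL2 knockout it stood at 72.1 and 79.5, against 147 and 154, a difference of -0.98 ± 0.15 (adjusted p = 0.00173). Induced p53 left it at 66.8 and 67.4, against 181 and 188, a difference of -1.45 ± 0.04 (adjusted p = 1.16e-07). PSAT1 was called in 3 comparisons, with differences of 1.66 after H2AZ knockout, 1.14 after BRD8 knockout and -1.21 after p53 induction. PSPH fell after TIP60 knockout, with a difference of -0.77, where PHGDH and PSAT1 had no call at -0.68 and -0.34. PSPH differences elsewhere were 0.56 after H2AZ knockout, -0.41 (lost without any 1 of the 4 libraries) after RUVBL2 knockout and -0.32 after p53 induction.

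PCK2, the mitochondrial phosphoenolpyruvate carboxykinase, was called in 6 comparisons. It stood at 2.64 and 2.77 FPKM after TIP60 knockout and 2.88 and 3.89 after TRRAP knockout, against 8.69 and 10.6 in sgNeg2, with differences of -1.51 ± 0.28 (adjusted p = 5.12e-04) and -1.28 ± 0.28 (adjusted p = 0.00935, lost without sgNeg2 replicate 1 or TRRAP guide 2). After RUVBL1 knockout it stood at 7.71 and 8.75 and after RUVBL2 knockout at 5.04 and 5.63, against 14.2 and 14.6 in sgNeg3, with differences of -0.74 ± 0.13 (adjusted p = 0.00412) and -1.28 ± 0.13 (adjusted p = 2.29e-04). All 8 of these libraries were below their controls. With induced p53 it stood at 5.54 and 5.91, against 27.1 and 29.3, a difference of -2.12 ± 0.07 (adjusted p = 1.65e-07). After H2AZ knockout it stood at 21.7, 25.9, 26.8 and 27.4, against 8.71 and 10.6, a difference of 1.31 ± 0.12 (adjusted p = 3.77e-04). After BRD8 knockout, at 1.54, 1.89, 2.19 and 2.27 against 1.62 and 1.98, the groups overlapped and the difference was 0.08 ± 0.11 (adjusted p = 0.557).

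CBS, cystathionine beta-synthase, opens the transsulfuration route from homocysteine to cysteine. After TIP60 knockout it stood at 10.05 and 10.1 FPKM and after TRRAP knockout at 16.01 and 25.8, against 41.4 and 42.4 in sgNeg2, with differences of -1.95 ± 0.18 (adjusted p = 2.77e-06) and -1.01 ± 0.18 (adjusted p = 0.00399, lost without TRRAP guide 2). After RUVBL1 knockout it stood at 28.5 and 32.1 and after RUVBL2 knockout at 21.7 and 22.1, against 50.5 and 53.96 in sgNeg3, with differences of -0.77 ± 0.12 (adjusted p = 0.0031) and -1.22 ± 0.12 (adjusted p = 2.40e-04). CBS was thus lower in the same 4 knockouts as PCK2. Induced p53 left it at 18.97 and 20.4, against 46.3 and 50.2, a difference of -1.25 ± 0.06 (adjusted p = 1.27e-06). The H2AZ libraries stood at 59.2, 59.7, 61.9 and 65.8, against 42.1 and 47.1, a difference of 0.46 ± 0.09 (adjusted p = 0.0192, lost without sgNeg4 replicate 1, H2AZ guide 1 replicate 2, H2AZ guide 2 replicate 1 or H2AZ guide 2 replicate 2). CTH, the next enzyme of the route, passed the filter in 2 comparisons, each time through the higher group alone. It stood at 0.861, 1.09, 1.29 and 1.34 FPKM after H2AZ knockout and 0.3101 and 0.477 in sgNeg4, and at 0.466 and 0.594 with induced p53 and 4.98 and 5.31 in A382_PCW. The differences were 0.62 ± 0.15 (adjusted p = 0.0446, lost without sgNeg4 replicate 1, H2AZ guide 1 replicate 1, H2AZ guide 1 replicate 2, H2AZ guide 2 replicate 1 or H2AZ guide 2 replicate 2) and -2.01 ± 0.09 (adjusted p = 6.26e-07).

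PYCR1, the last enzyme of proline synthesis, and ALDH18A1, an earlier one, were called in 5 and 3 comparisons and were never called higher. PYCR1 averaged 12.98 FPKM after TIP60 and 21.4 after TRRAP knockout, against 55.9 in sgNeg2, with differences of -2.04 ± 0.26 (adjusted p = 2.84e-05) and -1.44 ± 0.26 (adjusted p = 0.00388, lost without TRRAP guide 2). Its differences were -0.73 after RUVBL2 knockout, -1.22 after p53 induction and -0.26 (lost without sgNeg1 replicate 1 or sgNeg1 replicate 2) after BRD8 knockout. ALDH18A1 differences were -0.47 after TIP60 knockout, -0.30 (lost without sgNeg1 replicate 1) after BRD8 knockout and -0.40 after p53 induction. Both genes of proline synthesis fell after BRD8 knockout, where they were the members called lower.

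The mitochondrial one-carbon enzymes SHMT2 and MTHFD2 rose after H2AZ knockout by 0.69 and 1.2, and after BRD8 knockout by 0.33 (lost without sgNeg1 replicate 1) and 0.78. After p53 induction their differences were -1.06 and -1.65. After TRRAP knockout they were -0.66 (lost without sgNeg2 replicate 1, sgNeg2 replicate 2 or TRRAP guide 2) and -0.85 (lost without sgNeg2 replicate 1, sgNeg2 replicate 2 or TRRAP guide 2). SHMT2 also fell after TIP60 knockout, with a difference of -0.98. ALDH1L2, another mitochondrial one-carbon enzyme, was not tested. It stood at 0.742 and 0.651 FPKM with induced p53 and at most 0.0418 in every other library.

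All 5 amino acid transporters rose after H2AZ knockout, with a median of 0.74, and 4 of 5 rose after BRD8 knockout, with a median of 0.58. After TRRAP knockout 3 of 5 fell, with a median of -0.74, and after TIP60 knockout 0 of 5 were called. Over all tested genes, 2.60% rose after H2AZ, 24.2% rose after BRD8 and 7.71% fell after TRRAP knockout. After TIP60 knockout 42.0% of all tested genes were called. SLC7A5 (LAT1), which exchanges large neutral amino acids, averaged 46.5 FPKM after H2AZ knockout against 15.3, a difference of 1.57 ± 0.15 (adjusted p = 3.77e-04). Its difference was 0.59 after BRD8 knockout and -1.02 (lost without sgNeg2 replicate 1, sgNeg2 replicate 2 or TRRAP guide 2) after TRRAP knockout. After p53 induction it was -0.17, which turned to 0.05 when libraries were rescaled to a common median. SLC3A2, the heavy chain that partners SLC7A5, rose after BRD8 knockout by 1.04 ± 0.11 (adjusted p = 8.68e-05), after RUVBL1 knockout by 1.01 ± 0.22 (adjusted p = 0.0107, lost without sgNeg3 replicate 1, sgNeg3 replicate 2 or RUVBL1 guide 2) and after RUVBL2 knockout by 0.84 ± 0.22 (adjusted p = 0.0176, lost without any 1 of the 4 libraries). It also rose after H2AZ knockout by 0.63 and after p53 induction by 0.31.

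SLC1A5 (ASCT2) rose after H2AZ knockout by 0.93, after BRD8 knockout by 0.58 and after RUVBL1 knockout by 0.55 (lost without any 1 of the 4 libraries). Its difference was -0.80 (lost without sgNeg2 replicate 1 or TRRAP guide 2) after TRRAP knockout and -0.83 after p53 induction. SLC1A4 (ASCT1) rose after H2AZ knockout by 0.74. SLC1A4 differences were -0.74 (lost without sgNeg2 replicate 1, sgNeg2 replicate 2 or TRRAP guide 2) after TRRAP knockout, -0.34 (lost without sgNeg3 replicate 1, sgNeg3 replicate 2 or RUVBL1 guide 2) after RUVBL1 knockout, -0.68 after RUVBL2 knockout and -0.74 after p53 induction. SLC1A4 and SLC1A5, which are paralogs, were thus called in opposite directions after RUVBL1 knockout. SLC7A1 (CAT1), which carries arginine and lysine, rose after H2AZ knockout by 0.71 (lost without sgNeg4 replicate 1, H2AZ guide 1 replicate 2 or H2AZ guide 2 replicate 1) and after BRD8 knockout by 0.39 (lost without sgNeg1 replicate 1), and its difference after p53 induction was -0.52.

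The genes of tRNA charging and export all rose after H2AZ knockout (9 of 9, median 0.60), and 7 of 9 rose after BRD8 knockout (median 0.49). They fell after TIP60 knockout in 7 of 9 (median -0.67), after TRRAP knockout in 3 of 9 (median -0.47) and after p53 induction in 8 of 9 (median -1.05). Over all tested genes, 2.60% and 24.2% rose after H2AZ and BRD8 knockout. The shares that fell were 26.6% after TIP60 knockout, 7.71% after TRRAP knockout and 46.7% after p53 induction. AARS, the alanyl-tRNA synthetase, stood at 28.5 and 31.3 FPKM after TIP60 and 36.9 and 51.2 after TRRAP knockout, against 71.7 and 82.9 in sgNeg2, with differences of -1.34 ± 0.18 (adjusted p = 4.40e-05) and -0.81 ± 0.18 (adjusted p = 0.0107, lost without sgNeg2 replicate 1 or TRRAP guide 2). After RUVBL1 knockout it stood at 67.00 and 81.2 and after RUVBL2 knockout at 60.7 and 61.1, against 97.3 and 99.2, with differences of -0.41 ± 0.12 (adjusted p = 0.0377, lost without sgNeg3 replicate 1, sgNeg3 replicate 2 or RUVBL1 guide 2) and -0.68 ± 0.12 (adjusted p = 0.00357). AARS fell in the same 4 knockouts as PCK2 and CBS. With induced p53 it stood at 44.4 and 45.01, against 69.3 and 72.4, a difference of -0.65 ± 0.05 (adjusted p = 8.23e-06). After H2AZ knockout it stood at 125, 127, 132 and 135, against 85.3 and 85.6, a difference of 0.59 ± 0.09 (adjusted p = 0.0046). After BRD8 knockout its difference was 0.01 ± 0.06 (adjusted p = 0.934).

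GARS, the glycyl-tRNA synthetase, stood at 287, 289.9, 296 and 311 FPKM after H2AZ knockout, against 149 and 179.7, a difference of 0.85 ± 0.11 (adjusted p = 0.00241). The BRD8 libraries stood at 73.7, 78.9, 92.1 and 96.5, against 52.7 and 58.3, a difference of 0.60 ± 0.10 (adjusted p = 0.0012). GARS was lower after TIP60 knockout, at 57.6 and 65.04, and after TRRAP knockout, at 55.7 and 84.1, against 106 and 124 in sgNeg2. Those differences were -0.89 ± 0.23 (adjusted p = 0.00526) and -0.73 ± 0.23 (adjusted p = 0.0422, lost without sgNeg2 replicate 1, sgNeg2 replicate 2 or TRRAP guide 2). Induced p53 left it at 111 and 114, against 235 and 242, a difference of -1.07 ± 0.04 (adjusted p = 3.90e-07).

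XPOT, which exports tRNA from the nucleus, was called in 6 comparisons. The H2AZ libraries stood at 46.5, 51.8, 52.9 and 53.6 FPKM, against 24.5 and 28.01, a difference of 0.94 ± 0.10 (adjusted p = 9.83e-04). After BRD8 knockout it stood at 28.7, 32.4, 35.4 and 37.2, against 22.04 and 22.05, a difference of 0.57 ± 0.09 (adjusted p = 7.83e-04). XPOT rose in both RUVBL knockouts, in which AARS fell. It stood at 42.2 and 50.1 after RUVBL1 and 44.8 and 49.6 after RUVBL2 knockout, against 32.9 and 32.95, with differences of 0.47 ± 0.12 (adjusted p = 0.0221, lost without sgNeg3 replicate 1, sgNeg3 replicate 2 or RUVBL1 guide 1) and 0.51 ± 0.12 (adjusted p = 0.0131, lost without sgNeg3 replicate 1, sgNeg3 replicate 2 or RUVBL2 guide 1). After TIP60 knockout it stood at 14.3 and 18.7, against 25.4 and 29.7, a difference of -0.71 ± 0.20 (adjusted p = 0.0104, lost without sgNeg2 replicate 2 or TIP60 guide 1). With induced p53 it stood at 25.5 and 26.1, against 62.2 and 63.1, a difference of -1.25 ± 0.05 (adjusted p = 3.18e-07).

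The other cytosolic synthetases each rose after H2AZ knockout: WARS by 1.0, SARS by 0.57, MARS by 0.52 (lost without H2AZ guide 1 replicate 2), NARS by 0.61 (lost without sgNeg4 replicate 1), EPRS by 0.47 (lost without sgNeg4 replicate 1, H2AZ guide 1 replicate 2, H2AZ guide 2 replicate 1 or H2AZ guide 2 replicate 2) and YARS by 0.55. After TIP60 knockout the differences were -0.85 for MARS, -0.67 (lost without sgNeg2 replicate 1 or TIP60 guide 2) for YARS, -0.62 for EPRS and -0.49 (lost without sgNeg2 replicate 1, sgNeg2 replicate 2 or TIP60 guide 2) for SARS. After BRD8 knockout WARS rose by 0.47, SARS by 0.67, NARS by 0.52, EPRS by 0.21 (lost without sgNeg1 replicate 1 or sgNeg1 replicate 2) and YARS by 0.49. MARS was the one of these 6 called after TRRAP knockout, at -0.70 (lost without sgNeg2 replicate 1 or TRRAP guide 2). WARS and SARS rose after RUVBL1 knockout, by 0.66 (lost without any 1 of the 4 libraries) and 0.57 (lost without any 1 of the 4 libraries). NARS had the largest difference of the group with induced p53, at -1.51, and YARS was the one called higher there, at 0.15 (lost without A382_PCW replicate 1, A382_PCW replicate 2 or A382_P53 replicate 1). The other differences with induced p53 were -1.11 for WARS, -0.35 for SARS, -0.92 for MARS and -1.05 for EPRS.

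Differences between knockouts were tested directly where they lie in 1 section, without the control level. TIP60 minus EP400 called 7 of 38 members, 1 higher and 6 lower, against 21.3% of all genes, 7.82% higher and 13.5% lower. PYCR1 was the largest, at -1.5 ± 0.26 (adjusted p = 0.00113), followed by CBS at -1.35 ± 0.18 (adjusted p = 2.51e-04), and CEBPB was the member higher in TIP60, at 1.19 ± 0.29 (adjusted p = 0.00958). TIP60 minus TRRAP called 12 of 38, 8 higher and 4 lower, against 38.2%, 14.6% higher and 23.7% lower. The members lower in TIP60 were CBS, PSPH, AARS and EPRS, with CBS at -0.94 ± 0.18 (adjusted p = 0.00111). The members higher in TIP60 included 4 of 5 transporters, among them SLC7A1 at 0.75 ± 0.18 (adjusted p = 0.00514), and the factors CEBPB and CEBPG. EP400 minus TRRAP called NUPR1 alone, at 1.13 ± 0.25 (adjusted p = 0.0263), against 3.27%, 1.52% higher and 1.75% lower. RUVBL2 minus RUVBL1 called 0 of 38 at 0.00904% of all genes by limma, with 13 members and 5.37% of all genes at an unadjusted p under 0.05 and a median of -0.24, and the largest member difference was DDIT4 at -0.68 ± 0.14 (adjusted p = 0.646).

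The guides of 1 target were compared where each had 2 replicates. BRD8 guide 2 minus guide 1 called 0 of 36 members at 0.0118% of all genes by limma, with 15 members and 11.2% of all genes at an unadjusted p under 0.05, a median of -0.18 and TRIB3 farthest from 0 at -0.49 ± 0.11 (adjusted p = 0.145). H2AZ guide 2 minus guide 1 called 0 of 39 at 0% of all genes, with 1 member and 2.71% of all genes at an unadjusted p under 0.05, a median of -0.06 and NUPR1 farthest from 0 at -0.27 ± 0.11 (adjusted p = 0.973). A miss of the threshold with 2 libraries against 2 does not show that the guides act alike.

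Changes were also set against changes measured in other sections, each relative to its own sgNeg pair, in 5 pairs of knockouts. The sections were taken as normalized apart, which no source states. H2AZ minus TRRAP called 33 of 38 members, all higher after H2AZ knockout, against 8.05% of all 10964 genes tested in both (4.43% higher), with a member median of 1.4. H2AZ minus TIP60 called 31, all higher, against 27.4% (18.1% higher), with a median of 1.35. H2AZ minus RUVBL2 called 24 higher and 2 lower, against 19.2% of 10874 genes (11.9% higher). NUPR1 differed by 4.39 ± 0.30 (adjusted p = 6.24e-08) between H2AZ and TRRAP and by 3.82 ± 0.30 (adjusted p = 1.88e-07) between H2AZ and TIP60. INHBE differed by 3.42 ± 0.20 (adjusted p = 9.97e-07) between H2AZ and RUVBL2. The members with the larger rise after RUVBL2 knockout were ATF3, at -1.82 ± 0.20 (adjusted p = 7.97e-05), and STC2, at -0.75 ± 0.15 (adjusted p = 0.00462). H2AZ minus BRD8 called 15 of 36 members, all higher after H2AZ knockout, against 7.81% of 8241 genes (4.0% higher), with a median of 0.37. CHAC1 differed by 0.99 ± 0.19 (adjusted p = 0.00808) and TRIB3 by 0.93 ± 0.21 (adjusted p = 0.0182), while NUPR1 differed by 0.10 ± 0.18 (adjusted p = 0.795). BRD8 minus TRRAP called 28 of 36, all higher after BRD8 knockout, against 14.2% of 8305 genes (8.13% higher), with a median of 1.01. NUPR1 differed by 4.3 ± 0.31 (adjusted p = 1.14e-07) and ASNS by 1.9 ± 0.39 (adjusted p = 0.00388). FPKM of members such as ATF4 were lower throughout the first section, where adding 1 shrinks a change more. The gap was unlike between members, with ATF4 averaging 21.3 in sgNeg1, against 304 to 481 in sgNeg2 to sgNeg4. XPOT averaged 22.0, against 26.3 to 32.9. The pairs with BRD8 thus also carry this difference of level, which was not a common factor. These tests were added after the data had been seen, and sections differ in depth as well as in target.

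**Figure D5:**
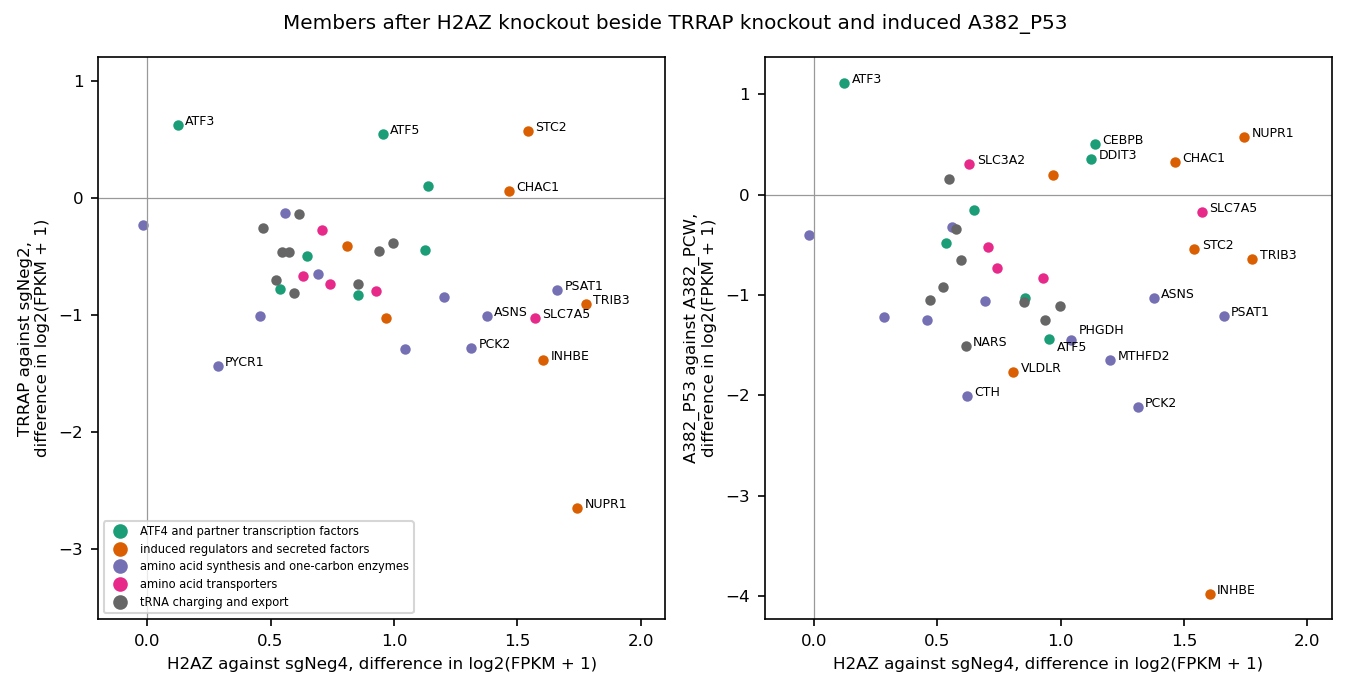
Each point is 1 member, coloured by role, with its difference in log2(FPKM + 1) after H2AZ knockout on the x axis and after TRRAP knockout (left) or p53 induction (right) on the y axis. These comparisons share no library. NUPR1 lies at 1.74 and -2.65 in the left panel, and INHBE lies at 1.60 and -3.98 in the right panel.

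Genes of the same pathway that are not members were read from lists. Their counts stand beside the shares of all tested genes called higher and lower: 2.60% and 3.42% for H2AZ, 24.2% and 21.7% for BRD8, 6.54% and 7.71% for TRRAP, 1.56% and 2.27% for EP400, and 15.4% and 26.6% for TIP60. The shares were 12.3% and 15.5% for RUVBL1, 13.5% and 19.9% for RUVBL2, and 37.6% and 46.7% for p53 induction. Among 17 other known ATF4 targets, 8 of 14 tested rose and 0 fell after H2AZ knockout, led by the secreted stress factor GDF15 (1.68), SESN2 (1.24) and the translation inhibitor EIF4EBP1 (0.77). After BRD8 knockout 9 of 12 rose and 0 fell, led by SQSTM1 (1.35), GDF15 (0.92) and the cystine transporter SLC7A11 (0.78). After TRRAP knockout 3 of 13 fell and 0 rose, led by the glycine transporter SLC6A9 (-1.74). SLC6A9 also fell after TIP60 knockout (-1.83) and after EP400 knockout (-1.3), where it was the gene of the list called. In TIP60 knockout SQSTM1 rose from a mean of 245 to 1018 FPKM. After RUVBL1 knockout 6 of 13 rose and 0 fell, led by GDF15 (2.68), and after RUVBL2 knockout 4 rose and 2 fell. With induced p53 4 of 16 rose and 8 fell. FGF21 went from a mean of 3.35 FPKM to being listed at 0 in both libraries. It entered that fit through the A382_PCW libraries alone and so had to differ. The lists were not screened for other genes that entered a fit only through the higher group, so their counts may hold more.

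Upstream of ATF4, the list of eIF2 alpha kinases, eIF2B subunits and phosphatase subunits gave few calls among the knockouts. Its largest differences there were in PPP1R15A (GADD34), the inducible subunit that directs dephosphorylation of eIF2 alpha. PPP1R15A rose after RUVBL1 (2.04), RUVBL2 (2.05), BRD8 (1.23) and H2AZ knockout (0.69). Of 15 tested genes of the list, 2 rose and 1 fell after H2AZ knockout, 2 rose and 1 fell after TIP60 knockout, and 1 rose after TRRAP knockout. The EIF2B4 subunit fell after TIP60 knockout (-1.05). With induced p53 4 rose and 9 fell.

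The cytosolic synthetases and subunits of their complex that are not members were counted next. After H2AZ knockout 4 of 15 rose and 0 fell, led by IARS (0.83) and CARS (0.53), with a list median of 0.18. After BRD8 knockout 8 rose and 3 fell. After TIP60 knockout 2 rose and 5 fell, led by CARS (-1.16) and TARS (-0.75), where 15.4% of all genes rose and 26.6% fell. After TRRAP knockout CARS (-0.64) and LARS (-0.57) fell, where 7.71% of all genes fell. With induced p53 14 of 15 fell and 0 rose. The mitochondrial synthetases, which charge tRNA inside the organelle, gave 0 calls of 16 after H2AZ knockout, with a list median of 0.01, while 5 rose and 3 fell after TIP60 knockout and 12 of 16 fell with induced p53. Over all tested genes, 15.4% rose and 26.6% fell after TIP60 knockout, and 46.7% fell with induced p53.

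The folate and methionine cycle genes outside the member list gave 1 of 15 higher and 0 lower after H2AZ knockout, the 1 being MTHFD1L (0.48), a mitochondrial one-carbon enzyme. After TIP60 knockout 1 rose and 6 fell, led by MTHFD1L (-0.86), and after RUVBL2 knockout 2 rose and 8 fell, led by SHMT1 (-1.2). The list of other proline, glutamine and arginine genes gave 1 of 11 higher after H2AZ knockout. With induced p53 4 of its 14 tested genes were called higher and 8 lower, with a list median of -0.38. The largest falls were in the transaminase GOT2 (-1.04) and in PYCRL (-1.04), a relative of PYCR1. The genes called higher were the breakdown enzymes ARG2 (3.17) and ALDH4A1 (2.63), the transaminase GPT (0.83) and PRODH. PRODH, which entered the fit through the p53 libraries, went from a mean of 0.125 to 25.4 FPKM.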

How the data were processed

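RNA-seq of 48 libraries was read from 1 table of FPKM per gene that the authors deposited. The submitters' processing notes name TopHat2, Cufflinks, Cuffdiff and hg19, without versions or roles. The table's empty header columns split it into 5 sections, taken as normalized apart, and it held 0 columns of other samples. The labels do not say that replicates were separate cultures, so p-values measure only the spread between these libraries.

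For each section, log2(FPKM + 1) of genes with at least 1 FPKM in at least 2 libraries was fitted with limma 3.58.1 (R 4.3.3, intensity trend, 1 mean per group, both guides of a target pooled). P-values were adjusted by Benjamini-Hochberg over all tested genes of the comparison, with a call under 0.05. The column deposited for both MEAF6 and VPS72 guide 2 was left out. The procedure was tested on simulated data. A few genes and 1 promoter sequence are not reported here. FPKM are not counts, so no count model was used.

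The 40 members and all lists were chosen with earlier results of these data known. Values by library are given for the 12 members called in the most comparisons and for ATF4; other members are given by differences where called, and list genes by examples among those called. The 5 differences between sections were added after the data were seen, and all 5 are reported. Alternatives varied the pseudocount, filter, libraries in the fit, scaling, trend, each left-out library and a replicate block.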

Additional observations from a re-analysis of the deposited data

Results flagged for a closer look

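A library outlying within its group was looked for in 80 pairs of a member and a group of 4 libraries, and 5 pairs had one, where chance gives about 1 in 20. SLC1A5 stood at 34.1 FPKM in BRD8 guide 2 replicate 2, against 36.7 to 37.0 in the other BRD8 libraries. The other 4 were in H2AZ libraries. DDIT3 stood at 153 in guide 2 replicate 1 (others 169 to 172) and DDIT4 at 30.6 in guide 1 replicate 2 (others 34.8 to 35.5). PYCR1 stood at 91.96 in guide 1 replicate 1 (others 76.0 to 78.5), and NARS at 63.8 in the same library (others 77.4 to 78.8).

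Some levels differed between knockouts of 1 section when tested directly: 7 members between TIP60 and EP400, 12 between TIP60 and TRRAP, and 1 between EP400 and TRRAP, against 21.3%, 38.2% and 3.27% of all genes. Changes measured in different sections differed in 33 members between H2AZ and TRRAP (8.05% of all genes), 31 between H2AZ and TIP60 (27.4%), 26 between H2AZ and RUVBL2 (19.2%), 15 between H2AZ and BRD8 (7.81%), and 28 between BRD8 and TRRAP (14.2%).

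The column deposited under both MEAF6 guide 2 and VPS72 guide 2 entered no comparison. In it, 24 of the 38 members compared were above both sgNeg2 libraries and 8 were below both. This was not counted over all genes, so it shows nothing particular to the members. FPKM summed to 488683 in this column, against 410168 and 366954 in the sgNeg2 libraries. DDIT3 stood at 77.5 FPKM there, against 36.8 and 39.3 in sgNeg2, and SLC3A2 at 184, against 103 and 124.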

How the results depend on the processing

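Of the 183 called differences of single members, 183 kept their direction and call with a smaller pseudocount, 179 without the intensity trend, 177 with libraries rescaled to a common median and 162 without the filter on low values. Rescaling turned CEBPG to 0.071 and SLC7A5 to 0.051 after p53 induction. Fits over the libraries of a comparison alone called 17 members for EP400, 6 for ACTL6A, 2 for ING3, 10 for GAS41 and 31 for RUVBL2, against 15.3%, 2.82%, 1.69%, 9.77% and 62.4% of all genes. Such fits called 25 members for RUVBL1, 20 for TRRAP and 19 for TIP60, against 56.1%, 11.1% and 31.1% of all genes. Rescaling called 1 member for ACTL6A, and dropping the filter left 11 for TRRAP and 0 for GAS41, against 0.8%, 7.55% and 0.0178% of all genes. The cause of these shifts was not tested.

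Leaving out 1 library at a time gave 20 to 30 called members for BRD8, 0 to 2 for EP400, 16 to 17 for TIP60, 0 to 5 for ACTL6A, 2 to 23 for TRRAP, 0 to 0 for GAS41, 0 to 2 for MORF4L2, 10 to 13 for RUVBL1, 12 to 14 for RUVBL2, 30 to 35 for H2AZ and 35 to 38 for p53, and 0 for the others. The spread of a lone library was then taken from the other groups. The count over all tested genes shifted in most of these fits as well, so a shift among members is not particular to them.

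With the replicate number as a block (replicate block), 29 members were called for BRD8, 36 for H2AZ and 38 for p53. Same-numbered libraries did not deviate together in every pair, with correlations from -0.281 to 0.308, so the numbers were not treated as pairing. Depth limits low genes most in the H2AZ section, where 1 FPKM stood for 4.4 to 7.7 fragments per kilobase.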

Other observations

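The control groups of the sections differed in their level of members, although sections may have been normalized apart and cells of the doxycycline section were treated differently. The A382_PCW mean was above all 4 sgNeg means for 34 of 40 members. The same count was not made over all genes, so it does not mark the members out from other genes. CTH averaged 5.15 FPKM in A382_PCW and at most 0.680 in an sgNeg pair. INHBE averaged 27.8, against at most 5.75, NUPR1 51.3, against at most 13.4, STC2 44.3, against at most 11.98, and TRIB3 171, against at most 46.8. ATF4 itself averaged 351 in A382_PCW, against 304 to 481 in sgNeg2 to sgNeg4 and 21.3 in sgNeg1. What part the drug, the vector or the normalization had in these levels was not tested.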
